A study of Sus scrofa with 48 samples.

Results

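The transcriptional response of pig liver to 3 days without feed was measured in gilts with the wildtype D298 form of the melanocortin 4 receptor gene (MC4R). The groups were formed by the array labels alone: 6 liver arrays of fasted D298 gilts against 6 of D298 gilts fed ad libitum. These are 12 of the 48 arrays of the series, with 1 gilt per array. Earlier results of these data were known when the comparison and the gene lists were chosen. The whole study crossed 2 genotypes (D298, and the D298N change, called N298 here, both homozygous) with 2 feeding states in 24 gilts, and measured liver and fat of each gilt. All gilts, the fed D298 controls included, were 6-month-old Yorkshire females of a feed-efficient line (selection was on low residual feed intake), so every value below applies to that background and to 1 sex. The 12 N298 liver arrays (6 fed, 6 fasted) served to test whether a response differed by genotype.

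When feed is withheld, falling insulin and rising glucagon, glucocorticoids and circulating fatty acids shift the liver from making and storing lipid to burning it and to making glucose. Sterol and fatty acid synthesis are controlled mainly by the SREBP transcription factors, which the SCAP protein escorts out of the endoplasmic reticulum and which the INSIG proteins hold back, while fatty acid oxidation responds to PPAR-alpha. MC4R itself works in the hypothalamus, where it restrains appetite, and the pig's liver is not its main site of fatty acid synthesis, since in this species fat tissue has that role.

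Values are signal intensities in arbitrary units, scaled to a common level on every array, and a change is the log2 signal of fasted minus fed liver. Its standard error (SE) and its p came from the limma model described with the methods, with 6 gilts in each group. A probe set, the group of short probes that reports 1 transcript, was called at a Benjamini-Hochberg adjusted p under 0.05 over all probe sets, and each gene is represented by its brightest probe set. The words rose and fell are used for called genes only. Signals of different probe sets are not on 1 scale and are not set against each other. In bulk tissue, fewer cells of a type and less RNA per cell cannot be told apart.

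The arrays of both groups were alike in their general measures. Median signal was 122 to 140.2 in fed and 125 to 139 in fasted liver (exact permutation p = 0.946), and the 3′ to 5′ signal ratios of 3 control transcripts, a sign of RNA integrity, gave exact permutation p-values of 0.563 to 0.851. Fed gilt 4 stood apart with an actin ratio of 8.63, and 288 probe sets were called without it. The tissue label held: 12 of 12 hepatocyte markers were higher in these gilts' liver than in fat (median log2 difference 8.73), and 10 of 11 adipocyte markers were lower (median -4.14). No hepatocyte marker was called between fed and fasted liver with limma, while 2 of 12 had an unadjusted p under 0.05. The summed hepatocyte marker signal ranged from 319343 to 379301 in fed and from 287208 to 331949 in fasted liver.

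Fasting changed 391 of 23999 probe sets, which is 1.63% of those tested. Of these 182 (0.758%) were higher and 209 (0.871%) lower in fasted liver. The large changes were mostly falls: 90 probe sets fell and 53 rose at least 2-fold, and 37 fell and 11 rose at least 4-fold. Complete separation, with all 6 fasted gilts on the same side of all 6 fed gilts, was seen for 165 probe sets above (0.688%) and 205 below (0.854%). Counted by gene, 188 of 6765 (2.78%) were called, 94 in each direction (1.39% each), and the median change of all genes was 0.04. The counts of called genes in each list below stand against these shares of all genes.

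**Figure D1:**
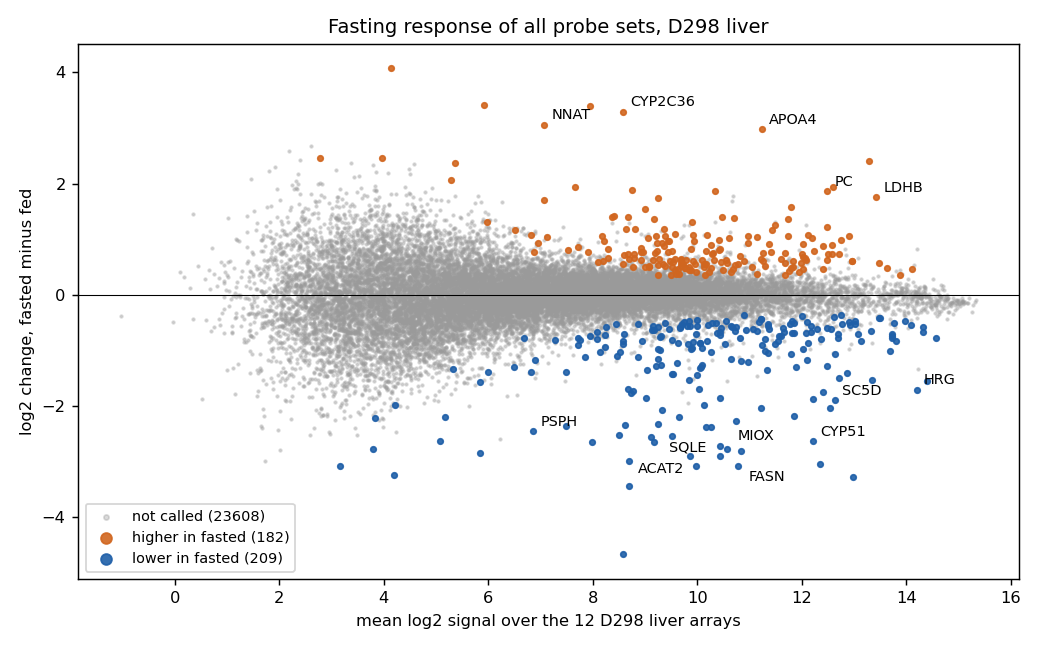
Each point is 1 probe set; the horizontal axis is its mean log2 signal over the 12 D298 liver arrays and the vertical axis its log2 change, fasted minus fed. Orange points mark the 182 called higher and blue points the 209 called lower; FASN, SQLE, ACAT2 and MIOX lie near the bottom and APOA4, NNAT and CYP2C36 near the top.

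The sterol pathway held the most uniform response. Of 30 genes listed for sterol synthesis and uptake, 15 were named on the array, and 12 of these 15 fell, with 1 rising and 2 not called (median change -1.53, against 0.04 for all genes). The early steps fell deeply. ACAT2, the cytosolic thiolase that joins acetyl-CoA units, had signals of 1813 to 3969 (median 3085) in fed and 301 to 454 (median 332) in fasted gilts. The groups were far apart, and the fall was 8.41-fold (log2 -3.07 ± 0.19 SE, adjusted p = 2.63e-09). HMGCS1, which makes HMG-CoA from the thiolase product, went from 1275 to 4266 (median 2706) to 212 to 513 (median 313), again without overlap (7.48-fold lower, log2 -2.90 ± 0.21 SE, adjusted p = 1.29e-08). FDPS, the synthase of farnesyl diphosphate, fell 6.63-fold, from 2032 to 4435 (median 3922) to 393 to 725 (median 556).

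Committed and late steps of the pathway fell as well, by unequal amounts. SQLE, the squalene epoxidase that limits the later pathway, had fed signals of 2457 to 5133 (median 3733) and fasted signals of 162 to 763 (median 655). Fasted gilt 1 lay far below its group at 162, yet the other fasted gilts were also below every fed gilt, and the fall was 7.50-fold (log2 -2.91 ± 0.26 SE, adjusted p = 4.69e-07). The lanosterol demethylase CYP51 fell 6.19-fold, the sterol reductase TM7SF2 4.53-fold and the sterol desaturase SC5D 3.71-fold, each with complete separation. SC5D was the most even within groups, at 11481 to 13668 (median 12027) in fed and 2857 to 3822 (median 3342) in fasted liver. The methyl oxidase MSMO1 fell 2.88-fold, although 1 of its 2 other probe sets gave 0.69. Squalene synthase (FDFT1) fell by less, 1.97-fold (log2 -0.98 ± 0.16 SE, adjusted p = 0.00113), without overlap. The dehydrogenase NSDHL fell 1.85-fold with overlapping groups (adjusted p = 0.0262), and its call was lost when any of 7 single arrays was left out (fed gilts 1, 2, 3 and 5, fasted gilts 1, 2 and 3; adjusted p up to 0.0886). HSD17B7, a ketosteroid reductase of the same pathway, ranged over 407 to 4293 (median 704) in fasted liver and was not called (log2 -0.06 ± 0.41 SE).

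The regulators of the pathway moved in both directions. INSIG1, the anchor of the SREBP complex, fell 2.83-fold, from 8620.1 to 16643 (median 11632) to 2320.1 to 5592 (median 4293), with no overlap (log2 -1.50 ± 0.21 SE, adjusted p = 0.000209). SREBF2, which encodes SREBP-2, fell 1.57-fold (adjusted p = 0.00986), and its 3 other probe sets gave -0.07, -1.49 and -0.87, none of them called. SCAP, the escort, was the single member that rose: signals of 356 to 505 (median 461) became 606 to 1067 (median 731), a 1.69-fold rise with all fasted gilts above all fed gilts (log2 0.76 ± 0.10 SE, adjusted p = 0.000116). The sterol exporter subunit ABCG8 was not called (log2 0.33 ± 0.19 SE). A further gene outside the list, C7H14orf1, a scaffold of the sterol demethylation enzymes that was picked after its values were seen, fell 2.55-fold without overlap (adjusted p = 0.000212). In all, 11 of the 15 listed genes lay entirely below the fed range and 1 entirely above it, where 1.32% and 1.24% of all genes did. Leaving out any single array left 11 or 12 of the 15 called lower and 1 higher.

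Low signals of the falling sterol genes recurred in a few gilts, while high ones were spread more widely. Fed gilt 6 had the lowest fed signal for 9 of the 12, with a median of -0.53 log2 units from the fed mean. Among fasted gilts, gilt 1 was lowest for 6 and gilt 4 for 5 of the 12, but gilt 4 was also highest for 2, as were gilts 2, 3 and 5, and gilt 6 for 4. Even the lowest fed values stayed above the highest fasted values for 11 of the 12, NSDHL being the exception.

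**Figure D2:**
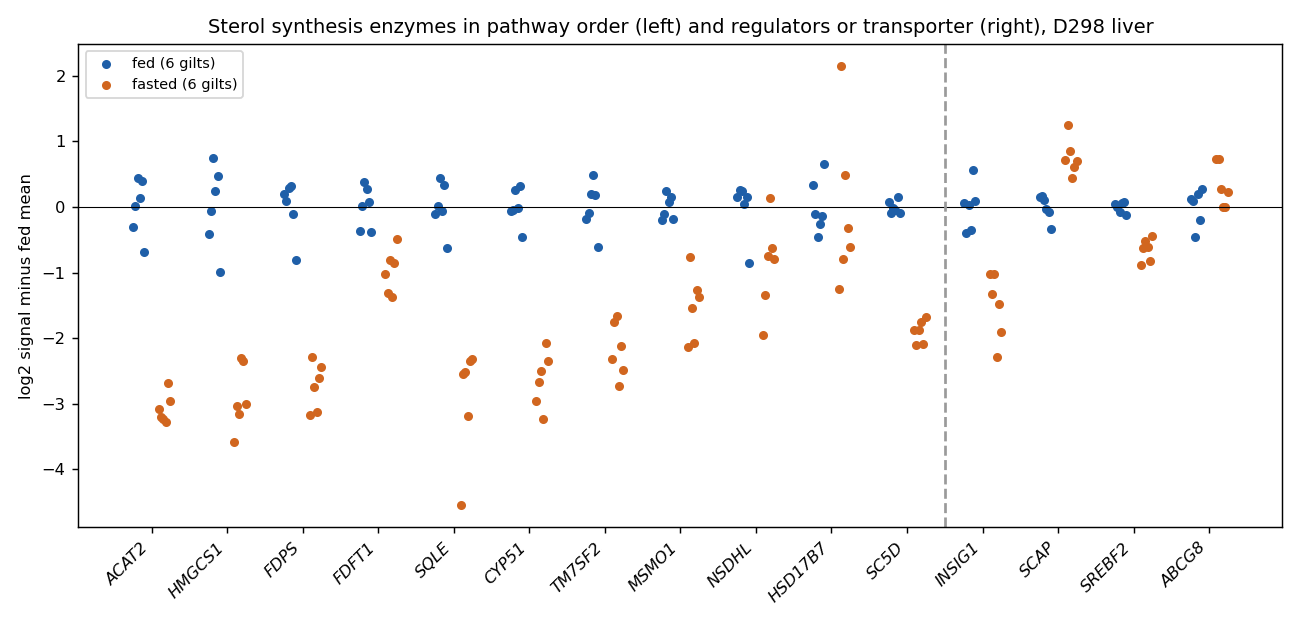
Each point is 1 gilt, plotted as log2 signal minus the mean of the 6 fed gilts, for 11 enzymes in pathway order and, right of the dashed line, 4 regulators or transporters; blue points are fed and orange points fasted gilts. Fasted points lie below the fed points for 11 genes, above them for SCAP, and among them for NSDHL, HSD17B7 and ABCG8.

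Fatty acid synthesis fell at the synthase and, in the main fit, at desaturation, but not at every step. Of 13 genes measured of 19 listed for fatty acid synthesis and NADPH supply, 6 fell and none rose (median change -1.25, against 0.04 for all genes), and 3 fell without the gilts numbered 3. FASN, the fatty acid synthase, had signals of 2736 to 7148 (median 5204) in fed and 382 to 875 (median 637) in fasted liver. With no overlap between groups it fell 8.48-fold (log2 -3.08 ± 0.25 SE, adjusted p = 9.52e-08), and its 3 other probe sets gave -0.41, -2.53 and -2.36, of which 2 were called. ACSS2, which activates acetate in the cytosol, went from 2726 to 5572 (median 3621) to 639 to 1191 (median 723), a 4.82-fold fall (adjusted p = 3.87e-05).

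Both desaturases were more variable between gilts. FADS1, the delta-5 desaturase of polyunsaturated fatty acids, had fed signals of 1323 to 2998 (median 1659) and fasted signals of 99.9 to 996 (median 289.9). The fasted gilts were widely spread, though none reached the fed range, and the fall was 5.83-fold (log2 -2.54 ± 0.52 SE, adjusted p = 0.00986). Stearoyl-CoA desaturase (SCD), the delta-9 enzyme, fell 3.37-fold from 5269 to 17296 (median 9215) to 1607 to 6347 (median 2523), with 4 of 6 fasted gilts below the fed range (adjusted p = 0.0123). The SCD call was lost in 3 of 6 fits without 1 replicate number, without the variance trend, and on the D298 arrays alone with the block. That of FADS1 was lost in 2 of 6 fits without 1 replicate number. FADS2, the delta-6 enzyme, gave a log2 change of -1.25 ± 0.42 SE and was not called. Malic enzyme (ME1), which makes NADPH, and transketolase (TKT), which does not itself make it, fell 2.61-fold and 1.84-fold (adjusted p = 0.00838 and 0.00182). PGD, an NADPH-making dehydrogenase of the list, was not called, with log2 changes of -0.44 to -0.20 when single arrays were left out.

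Other members did not pass the test and pointed both ways. The carboxylase ACACA, whose probe set was dim, gave -1.50 ± 0.63 (adjusted p = 0.324), the elongase ELOVL6 0.82 ± 0.35 and the mitochondrial citrate carrier SLC25A1 0.47 ± 0.14. SLC25A1 was called without fasted gilt 4 (adjusted p 0.00761). Transaldolase (TALDO1) gave -0.03 ± 0.09, the least change of the list. SREBF1, which encodes the SREBP form tied to fatty acid synthesis, had higher signals in 5 of 6 fasted gilts than in any fed gilt (log2 0.75 ± 0.25 SE) but was not called (adjusted p = 0.157). Fasted gilt 6 had the highest fasted signal for 3 of the 6 falling genes, with a median of 0.74 log2 units above the fasted mean.

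Genes for the use of fatty acids rose in part. Of 11 genes measured of 18 listed for fatty acid uptake, activation and mitochondrial entry, 2 rose and 1 fell. CRAT, the mitochondrial carnitine acetyltransferase, which buffers acetyl-CoA, had signals of 483 to 1274 (median 973) in fed and 2020.5 to 2622 (median 2298) in fasted liver. Every fasted gilt exceeded every fed gilt, and the rise was 2.65-fold (log2 1.41 ± 0.17 SE, adjusted p = 3.14e-05). The carnitine-acylcarnitine carrier SLC25A20 rose 1.77-fold (912 to 1166 (median 1043) against 1543 to 2198 (median 1784), adjusted p = 0.00143). ACSL4, an acyl-CoA synthetase that prefers arachidonic acid, fell 3.25-fold (adjusted p = 0.00653). CPT1A, the gate of fatty acid entry into mitochondria, ran from 1931 to 4386 (median 2725) in fed to 3289.5 to 6093 (median 4330.4) in fasted liver. These ranges overlapped, and the log2 change of 0.66 ± 0.23 SE was not called (adjusted p = 0.200).

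Mitochondrial beta-oxidation split by enzyme. All 18 listed genes were measured: 6 rose, 2 fell and 10 were not called, so that the median change was 0.01. The risers included the enzymes of long acyl chains. ACADVL, the dehydrogenase for very long acyl chains, had signals of 1834 to 2468 (median 2144) in fed and 4458 to 8321 (median 4944) in fasted liver, and rose 2.57-fold without overlap (log2 1.36 ± 0.14 SE, adjusted p = 2.02e-06). HADHA and HADHB, the 2 subunits of the trifunctional protein, rose 2.10-fold and 1.53-fold. HADHA went from 2276 to 3627 (median 3143) to 4645 to 7166 (median 6771), with fasted gilt 4 lowest but still above every fed gilt. The long chain dehydrogenase ACADL rose 2.06-fold, the dienoyl-CoA isomerase ECH1 2.07-fold and ETFDH, which passes electrons to the respiratory chain, 1.49-fold (adjusted p = 0.00212, 8.23e-05 and 0.00257). For all 6 the fasted gilts lay above the fed gilts, as was so for 1.24% of genes.

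The other members did not share this rise. DECR1, the dienoyl-CoA reductase for unsaturated chains, fell 1.71-fold, from 7673 to 9965 (median 8429) to 3819 to 6804 (median 4861), without overlap (adjusted p = 0.000176). ECI1, an enoyl-CoA isomerase, fell 1.34-fold (adjusted p = 0.00966). The medium chain dehydrogenase ACADM gave -0.22 ± 0.12, the short chain dehydrogenase ACADS 0.19 ± 0.08 and the hydroxyacyl dehydrogenase HADH -0.30 ± 0.08, none of them called. HADH is the one uncalled member whose groups did not overlap, with fasted signals of 13484 to 15159.5 (median 14398) below fed signals of 15387 to 19565 (median 17463) (adjusted p = 0.0591). Leaving out any single array left 6 or 7 of the 18 called higher and 2 called lower. On the 12 D298 arrays alone, with the replicate block, 4 were called higher and 1 lower, and HADHB, ETFDH and ECI1 lost their calls.

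Peroxisomal and ketogenic genes gave few calls. Of 9 peroxisomal oxidation genes measured of 13 listed, ABCD3, a fatty acyl-CoA importer, rose 1.67-fold with separated groups (log2 0.74 ± 0.16 SE, adjusted p = 0.0155). Its 2 other probe sets were also called higher, but its call was lost without fed gilt 2, fasted gilt 2 or fasted gilt 3 (adjusted p up to 0.0626). For ketone bodies only 2 of 7 listed genes were measured, the dehydrogenase BDH1 (log2 0.63 ± 0.20 SE) and the ketone-using transferase OXCT1 (0.16 ± 0.29), and neither was called by limma, with 1 of 2 at an unadjusted p under 0.05. Of 9 PPAR-alpha-responsive genes measured of 15 listed, PLIN2 rose. PDK4, which restrains pyruvate oxidation and is a common fasting marker, went from 3069 to 7086 (median 5361) in fed to 3079.5 to 5286 (median 4559.7) in fasted liver. Those ranges overlapped throughout (log2 -0.23 ± 0.18 SE, adjusted p = 0.687). The lipase inhibitor ANGPTL4 likewise showed -0.08 ± 0.22 (adjusted p = 0.937). PPARA was too dim to follow, at 1.51 to 57.9 (median 12.5) in fed and 6.59 to 38.7 (median 19.3) in fasted liver.

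**Figure D3:**
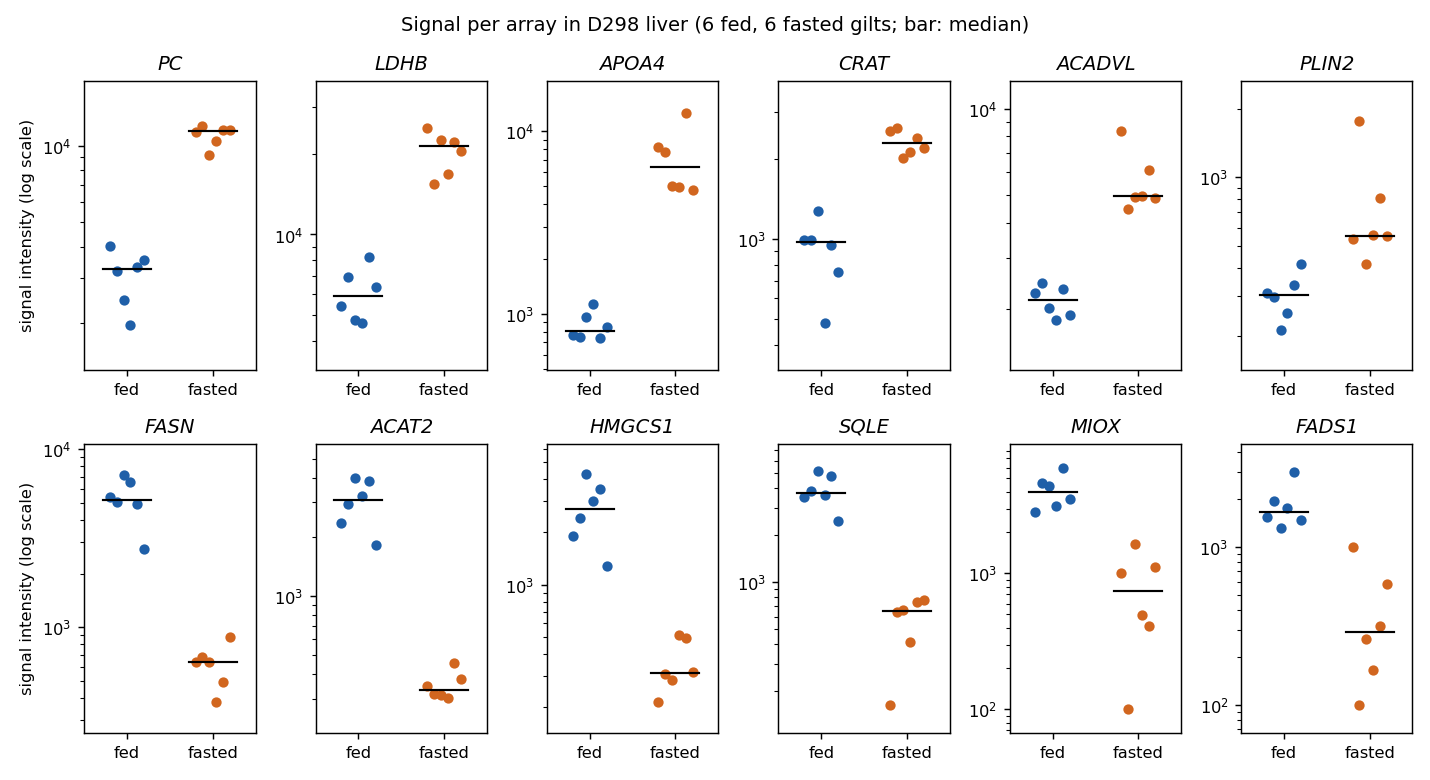
Signal intensity on a log scale, with its own range in each panel, for 12 genes in 6 fed (blue) and 6 fasted (orange) D298 gilts; each point is 1 gilt and the bar is the group median. The upper genes rose and the lower genes fell, and only PLIN2 shows a fasted point within the fed range.

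Coat proteins of the lipid droplet rose. Of 10 genes measured of 15 listed for lipid droplets and lipolysis, 3 rose and none fell in the main fit (median change 0.64). PLIN3 had signals of 268 to 570.3 (median 466) in fed and 677 to 1465 (median 938) in fasted liver, and rose 2.28-fold without overlap (log2 1.19 ± 0.17 SE, adjusted p = 0.000280). CIDEB, which loads lipid onto very low density lipoproteins, rose 1.99-fold, from 3547 to 5809 (median 5120.1) to 8149.7 to 12511 (median 9365) (adjusted p = 4.76e-05). PLIN2 had signals of 212 to 414 (median 302) in fed and 413 to 1769 (median 552) in fasted liver. One fasted gilt was within the fed range and fasted gilt 2 was far above the rest, the rise was 2.29-fold (adjusted p = 0.0138), and the call was lost without fed gilt 2 or fed gilt 3 (adjusted p up to 0.0557). The lipases were not called: PNPLA2, the main triglyceride lipase, gave -0.03 ± 0.17 and monoglyceride lipase (MGLL) 0.50 ± 0.19. PNPLA3, a lipid droplet protein under SREBP control, had the largest estimate of the list, from 64.7 to 375 (median 177) in fed to 6.19 to 51.9 (median 41.6) in fasted liver. All fasted gilts lay below all fed gilts, but the signals were dim and the change was not called (log2 -2.59 ± 0.72 SE, adjusted p = 0.0793). Without fed gilt 6 PNPLA3 was called lower, with an adjusted p of 0.0234. It was also called without the replicate block, with a random block, and on the D298 arrays alone without the block. Array weights and 32 added before log2 each gave the call too.

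In the assembly of glycerolipids, 1 of 13 measured genes rose and 3 fell. DGAT1, the last enzyme of triglyceride synthesis, fell 1.47-fold without overlap (log2 -0.55 ± 0.10 SE, adjusted p = 0.00430), although its other probe set gave 0.04. Choline kinase (CHKA) fell 1.84-fold and the phosphatidate phosphatase LPIN1 2.73-fold, both with overlap (adjusted p = 0.0136 and 0.0474). The LPIN1 call was lost when any of 11 single arrays was left out, all but fed gilt 4 (adjusted p up to 0.139), and that of CHKA without fasted gilt 2 (adjusted p 0.0505). PEMT, which makes phosphatidylcholine by methylation, rose 1.55-fold (adjusted p = 0.0171), a call lost without fed gilt 2 or 5 or fasted gilt 2 or 5 (adjusted p up to 0.0529).

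Among 14 apolipoprotein and lipoprotein genes measured, 2 rose. APOA4, an apolipoprotein of triglyceride-rich particles, had signals of 740.0 to 1131 (median 809) in fed and 4806 to 12563 (median 6401) in fasted liver. The lowest fasted gilt was several times above the highest fed gilt, and the rise was 7.91-fold (log2 2.98 ± 0.55 SE, adjusted p = 0.00374). LCAT, which esterifies cholesterol in plasma, rose 1.66-fold (3675 to 6056 (median 4617) against 6951 to 9894 (median 7807), adjusted p = 0.000178). The other apolipoproteins gave no call, with APOA1 at -0.06, APOB at -0.08 and APOE at -0.14 on the log2 scale.

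Glucose-producing genes were called at the entry of pyruvate in the main fit. Of 15 gluconeogenesis genes measured, 2 rose and none fell (median change 0.29). PC, the pyruvate carboxylase that makes oxaloacetate, had signals of 1956 to 4012 (median 3270.0) in fed and 9149 to 11969.7 (median 11444) in fasted liver. The 6 fasted gilts were close together and well above every fed gilt, and the rise was 3.65-fold (log2 1.87 ± 0.13 SE, adjusted p = 7.78e-09). MPC2, a subunit of the mitochondrial pyruvate carrier, rose 1.52-fold, from 5612 to 7798 (median 6396) to 8147 to 12429.5 (median 9482) (adjusted p = 0.0128). Its call was lost without the variance trend and on the D298 arrays alone with the block. Its partner MPC1 gave 0.34 ± 0.11 and was not called. PCK1, the cytosolic carboxykinase often taken as the marker of gluconeogenesis, was high in both groups, at 10736 to 17804 (median 15206) in fed and 11382 to 14406 (median 13233) in fasted liver. Its fasted values fell within the fed range (log2 -0.17 ± 0.15 SE, adjusted p = 0.728). The mitochondrial form PCK2 gave 0.39 ± 0.17, the bisphosphatase FBP1 0.29 ± 0.10 and the glucose-6-phosphate carrier SLC37A4 0.48 ± 0.13. None of these was called, although without fasted gilt 2 PCK2 was (adjusted p 0.0190) and without fed gilt 5 SLC37A4 was (adjusted p 0.0254). Under quantile normalization 5 of the 15 genes were called higher, against 2, with FBP1, SLC37A4 and MPC1 added. FBP1 and SLC37A4 were also called with brighter probe sets only. PPARGC1A, a coactivator of this pathway, gave -0.73 ± 0.29 (adjusted p = 0.280).

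In glycolysis and glycogen metabolism 3 of 22 measured genes rose and 2 fell. LDHB, the lactate dehydrogenase subunit that favours lactate oxidation, had signals of 4679 to 8245 (median 5888) in fed and 15429 to 24891 (median 21333) in fasted liver. With no overlap it rose 3.38-fold (log2 1.76 ± 0.14 SE, adjusted p = 9.52e-08), while LDHA gave 0.41 and was not called. The liver phosphofructokinase PFKL rose 1.71-fold and the isomerase GPI 1.49-fold (adjusted p = 0.00362 and 0.0241). Enolase 1 (ENO1) and phosphoglycerate kinase (PGK1) fell 1.28-fold and 1.32-fold (adjusted p = 0.0148 and 0.0457). Of these, GPI lost its call when any of 7 arrays was left out (fed gilts 1, 2, 3 and 6, fasted gilts 1, 2 and 5; adjusted p up to 0.0800) and PGK1 when any of 10 was (all but fed gilt 3 and fasted gilt 4; adjusted p up to 0.129). Without the variance trend, or on the D298 arrays alone, neither fall was called.

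Core mitochondrial energy genes showed little. Of 20 measured genes listed for the tricarboxylic acid cycle, 1 rose and 19 were not called. The riser was IDH1, the cytosolic isocitrate dehydrogenase, which lies outside the mitochondrial cycle. It went from 3362 to 6012 (median 4212) to 6572 to 9241 (median 8416) (1.85-fold, adjusted p = 0.00264). None of 38 oxidative phosphorylation genes was called by limma, with 3 at an unadjusted p under 0.05 (7.89%, against 16.2% of all genes), and their estimates ran from -0.36 to 0.15.

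Amino acid metabolism changed at single enzymes. In 27 measured genes of the urea cycle and amino acid breakdown, 1 rose and 1 fell (1.39% of all genes in each direction), and the urea cycle enzymes CPS1, ASS1 and ASL gave 0.12, 0.18 and -0.02. GLUL, the glutamine synthetase of the hepatocytes around the central vein, fell 2.27-fold, from 5884 to 7439 (median 6510.5) to 1966 to 6337 (median 2527). One fasted gilt remained at fed level (log2 -1.18 ± 0.22 SE, adjusted p = 0.00374), and its 2 other probe sets gave 0.26 and -1.54, neither called. CTH, the cystathionine lyase of cysteine synthesis, rose 1.40-fold (adjusted p = 0.0499), a call lost when any of 8 arrays was left out (fed gilts 1 to 4, fasted gilts 2 to 5; adjusted p up to 0.146). All 9 measured genes of serine, glycine and one-carbon metabolism had estimates below 0, and 2 fell. PSPH, the phosphatase that completes serine synthesis, was dim and fell 5.49-fold, from 120.0 to 460.1 (median 300.2) to 17.6 to 125 (median 61.1), with 5 of 6 fasted gilts below the fed range (log2 -2.46 ± 0.39 SE, adjusted p = 0.000857). With 32 added before log2 its change was -1.84. ALDH1L1, the folate enzyme that releases formate carbon as carbon dioxide, fell 2.02-fold without overlap (adjusted p = 4.56e-05), whereas its other, dimmer probe set gave 1.44 and was not called. The upstream serine enzymes PSAT1 and PHGDH, named after their values were seen, gave -0.38 ± 0.10 and -0.53 ± 0.38 and were not called.

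Drug-metabolising enzymes mostly had estimates below 0. Of 20 measured genes of oxidation and hydrolysis, 2 fell and 1 rose (median change -0.24), with 16 estimates below 0 and 4 above. CYP2B22, a pig cytochrome P450 of the CYP2B family, had signals of 787 to 3213 (median 1228) in fed and 94.9 to 363 (median 232) in fasted liver and fell 5.87-fold without overlap (log2 -2.55 ± 0.40 SE, adjusted p = 0.000688). The microsomal epoxide hydrolase EPHX1 fell 1.70-fold (15423 to 20318 (median 17752) against 6596 to 13741 (median 11146), adjusted p = 0.00362). CYP2C36 rose from 23.5 to 529.7 (median 133) to 294 to 2981 (median 1496), with 5 of 6 fasted gilts above the fed range (9.78-fold, log2 3.29 ± 0.83 SE). Without fed gilt 5 the log2 change was 2.56. CYP2C36 was near the threshold (adjusted p = 0.0459), was not called without any 1 of 10 arrays (all but fed gilt 1 and fasted gilt 2; adjusted p up to 0.139), and its other probe set gave -1.26. Members of this family are close in sequence, so shared hybridisation among CYP2C genes cannot be told apart from a change of this gene. None of 31 conjugation and antioxidant genes was called by limma, though 14 had an unadjusted p under 0.05 (45.2%, against 16.2% of all genes).

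For bile acids all 6 measured genes can be given. SLC10A1, the uptake carrier of the sinusoidal membrane, fell 1.78-fold, from 18109 to 20047 (median 19198) to 7149 to 13135 (median 11289), without overlap (log2 -0.83 ± 0.12 SE, adjusted p = 0.000421). CYP7A1, the rate-limiting enzyme of bile acid synthesis, had signals of 140.0 to 2785 (median 2023) in fed and 123 to 1142 (median 752) in fasted liver. In each group 1 gilt lay far below the others, and the log2 change of -1.17 ± 0.57 SE was not called (adjusted p = 0.429), nor was it without any single array (adjusted p down to 0.123). CYP8B1 was dim (log2 1.71 ± 0.73 SE), and CYP27A1 (-0.44 ± 0.13), the export pump ABCB11 (-0.17 ± 0.17) and the receptor NR1H3 (0.07 ± 0.10) were not called.

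Hormone-related genes gave 1 call. In the insulin, FOXO and glucocorticoid list, KLF9, a transcription factor induced by glucocorticoids and thyroid hormone, was the single one of 20 measured genes to change, falling 2.09-fold (log2 -1.06 ± 0.17 SE, adjusted p = 0.00113). Its signals went from 3499 to 6656 (median 5411) in fed to 1763 to 3561 (median 2374) in fasted liver, with 1 fasted gilt in the fed range, and its other probe set gave 0.28. None of 14 genes of the growth hormone and IGF axis was called by limma, with 3 at an unadjusted p under 0.05. IGF1 was at 352 to 1019 (median 758) in fed and 447 to 1097 (median 731) in fasted liver, fully overlapping (log2 0.02 ± 0.30 SE). The growth hormone receptor GHR gave -0.18 ± 0.24, the binding protein IGFBP2 0.23 ± 0.24 and IGFALS, the subunit that stabilises IGF in plasma, -1.19 ± 0.34 (the last 2 were named after their values were seen). IGFALS was called without fasted gilt 3 or fasted gilt 5 (adjusted p down to 0.0148). IGFBP1, which insulin represses in liver, had lower rather than higher signals in fasting, at 6834 to 14150.3 (median 10793) in fed and 3307 to 8271 (median 5673) in fasted liver, with 4 of 6 fasted gilts below the fed range. It missed the threshold (log2 -0.89 ± 0.23 SE, adjusted p = 0.0591), and passed it without fed gilt 6 (adjusted p 0.0179).

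Clock and appetite genes were not called in the main fit. Of 7 clock genes measured, limma called 0 and 3 had an unadjusted p under 0.05. The repressor BHLHE40 came closest, with 5 of 6 fasted gilts below the fed range (log2 -0.93 ± 0.24 SE, adjusted p = 0.0542). It was called without fed gilt 5 or fasted gilt 5 (adjusted p down to 0.0223). The call also appeared without the replicate block, with a random block, and on the D298 arrays alone without the block. Quantile normalization, median-centring, brighter probe sets only and 32 added before log2 each gave the call too. The other 6 were ARNTL (0.89 ± 0.35), PER1 (-0.31 ± 0.19), CRY2 (0.29 ± 0.26), RORA (-0.63 ± 0.30), DBP (-0.47 ± 0.27) and NFIL3 (-0.23 ± 0.21). None of 9 genes of the melanocortin and leptin system was called or had an unadjusted p under 0.05. MC4R itself had signals of 2.19 to 27.8 (median 14.1) in fed and 1.45 to 30.0 (median 13.8) in fasted liver, and the leptin receptor LEPR gave -0.21 ± 0.67.

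Secreted plasma proteins were lower in a few cases. HRG, the histidine-rich glycoprotein, had signals of 31658 to 35641 (median 34618) in fed and 1742 to 22531 (median 14271) in fasted liver and fell 3.26-fold (log2 -1.70 ± 0.35 SE, adjusted p = 0.0107). Fasted gilt 2 was far below the rest, at 1742, but the other 5 fasted gilts were also below every fed gilt. The HRG call was lost on the D298 arrays alone, with and without the block, and in 2 of 6 fits without 1 replicate number. Without fasted gilt 2 its log2 change was -1.17, still called. Kininogen (KNG1), the single called gene of 25 measured acute phase and coagulation genes, fell 1.43-fold (adjusted p = 0.0404), with the same gilt lowest, and lost its call when any of 8 arrays was left out (fed gilts 1, 2, 3, 5 and 6, fasted gilts 2, 4 and 6; adjusted p up to 0.137). Of the 25 estimates 24 were below 0 (median -0.16, or -0.04 under quantile normalization). SERPINA6, the carrier of cortisol in blood, named after its values were seen, fell 2.43-fold with overlap (adjusted p = 0.0490), and was not called without any 1 of 10 arrays (all but fed gilt 1 and fasted gilt 1; adjusted p up to 0.150).

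Genes of turnover and structure gave single calls. In autophagy and lysosomes, 3 of 26 measured genes fell and none rose, where 1.39% of all genes fell. MAP1LC3A, a form of the autophagosome protein LC3, fell 1.82-fold (1088 to 1746 (median 1546) against 565 to 1065 (median 772), adjusted p = 0.00716). NPC1, the lysosomal cholesterol transporter, fell 1.69-fold and the protease cathepsin H (CTSH) 1.67-fold, all 3 without overlap. The related MAP1LC3B gave -0.16 and the adaptor SQSTM1 -0.23, neither called. POSTN, a matrix protein, was the single called gene of 23 matrix genes, falling 1.52-fold (adjusted p = 0.00150), with its other probe set at 0.17. None of 59 ribosomal protein genes, 35 proteasome and ubiquitin genes, 26 cell cycle genes, 22 chaperones, 21 endoplasmic reticulum folding genes, 23 complement genes or 18 interferon-response genes was called by limma, and 1, 2, 4, 2, 1, 1 and 0 of them had an unadjusted p under 0.05.

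**Figure D4:**
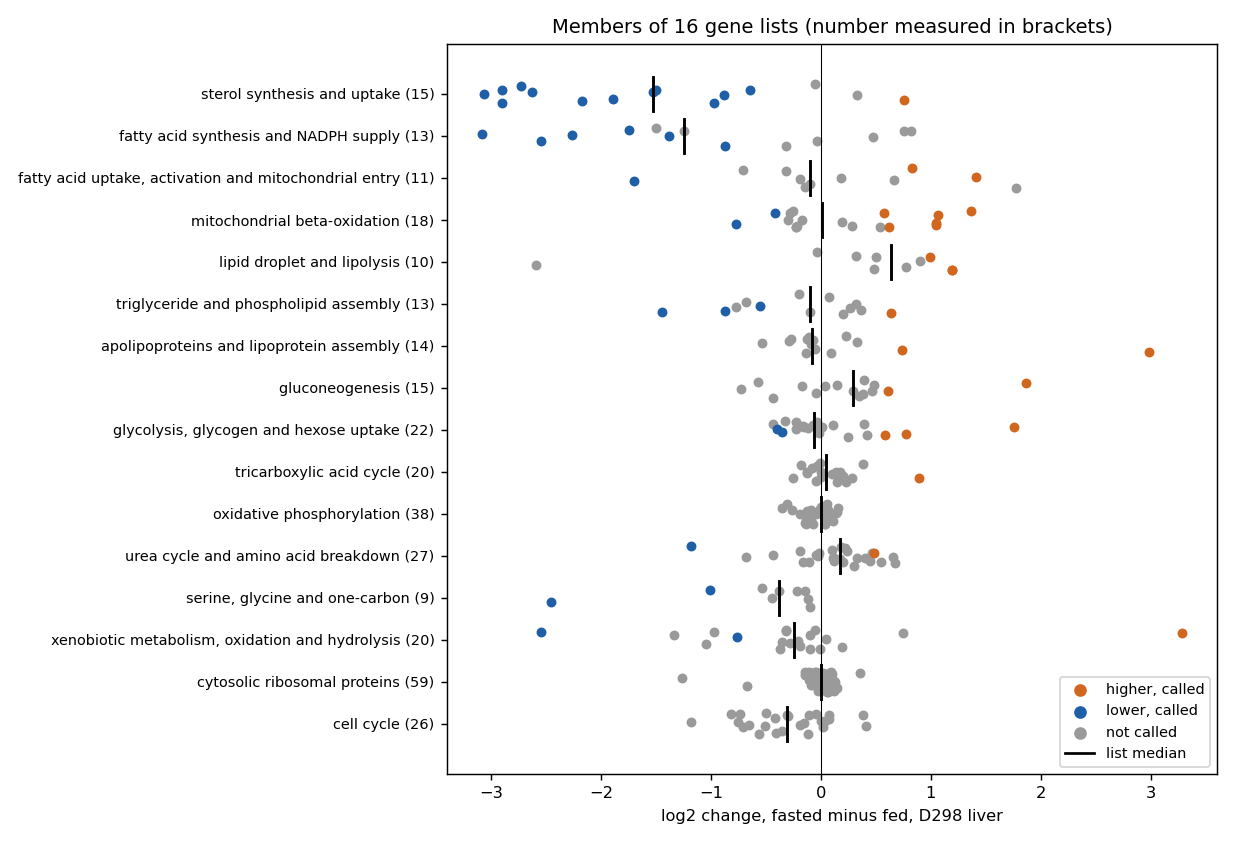
Each point is 1 gene, placed by its log2 change, fasted minus fed, in D298 liver, for 16 gene lists; orange and blue points were called higher and lower, grey points were not called, and the black bar is the list median. The medians of sterol (-1.53) and fatty acid synthesis (-1.25) lie far to the left, while the other 14 medians lie between -0.38 and 0.64.

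Several leading rises belonged to no list. NNAT, neuronatin, an imprinted membrane proteolipid, had signals of 21.5 to 102 (median 47.0) in fed and 207 to 741 (median 384) in fasted liver. The groups were well apart, with a 8.32-fold rise (log2 3.06 ± 0.46 SE, adjusted p = 0.000485). Its fed signals were low, and with 32 added before log2 the change was 2.39. PMM1, a phosphomannomutase, rose 3.83-fold, and MDFIC, an inhibitor of MyoD family factors, 3.35-fold, the latter also on its second probe set (1.36). ID1, an inhibitor of helix-loop-helix transcription factors, rose 2.61-fold from 623 to 1471 (median 1082) to 1566 to 4156 (median 2733) (adjusted p = 0.00515). KYAT1, which transaminates kynurenine, and DHRS4, a carbonyl and retinal reductase, rose 2.49-fold and 2.40-fold. All 6 separated fed from fasted gilts.

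A pair of rises needs more care. NEB, nebulin of the muscle thin filament, rose 3.25-fold, from 28.2 to 141 (median 81.1) to 168 to 599 (median 196), with fasted gilt 2 at 599 and the next highest at 262. It was the single called gene of 14 muscle markers, whose summed signal ranged from 597 to 920.2 in fed and from 745 to 1204 in fasted liver, so the 2 ranges overlapped. Its part in the NEB result was not tested. The uncharacterised LOC100624460 rose 2.65-fold with overlap and lost its call when any of 7 arrays was left out (fed gilts 1 to 4, fasted gilts 1, 4 and 6; adjusted p up to 0.105).

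Some of the deepest falls also lay outside lipid synthesis. MIOX, the oxygenase that opens myo-inositol, had signals of 2821 to 5987 (median 3951) in fed and 101 to 1644 (median 748) in fasted liver. Fasted gilts spread over more than 10-fold but stayed below all fed gilts, and the fall was 6.82-fold (log2 -2.77 ± 0.41 SE, adjusted p = 0.000454). DHRS7, a short-chain dehydrogenase, fell 3.61-fold, from 1772 to 3538 (median 2792) to 486 to 1077 (median 767) (adjusted p = 8e-06). Named after their values were seen, gelsolin (GSN), which severs actin filaments, and the dihydrodiol dehydrogenase DHDH fell 2.67-fold and 2.46-fold, and retinol saturase (RETSAT) rose 1.84-fold, each without overlap. GSN had a second probe set that gave 0.42.

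Of the 391 called probe sets, 153 had no gene symbol, and some of these were among the strongest responders. Probe set Ssc.8790.1.A1_at had signals of 897 to 3647 (median 2177) in fed and 39.3 to 122 (median 74.0) in fasted liver, a log2 change of -4.67 ± 0.31 SE (adjusted p = 6.93e-09). Ssc.6714.1.A1_at, with fed signals of 19744 to 30036 and fasted signals of 1452 to 4767, changed by -3.27 ± 0.22 SE. In the other direction Ssc.30467.1.A1_at changed by 3.40 ± 0.37 SE and Ssc.14479.1.S1_at by 2.41 ± 0.48 SE. All 4 separated the groups, and the genes behind them were not identified here.

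Markers of other cell types were looked at as lists. Limma called 0 of 11 macrophage and Kupffer cell markers, 2 having an unadjusted p under 0.05, and their summed signal was 45530 to 59706 in fed and 51593 to 71060 in fasted liver. No marker of the list was at 0. A few genes that macrophages also express, picked after their values were seen, did rise: GPNMB, a lysosomal glycoprotein, 1.98-fold, PLA2G7, a lipoprotein-bound phospholipase, 1.97-fold, and ACP5, the tartrate-resistant acid phosphatase, 2.13-fold (adjusted p = 0.0189, 0.0121 and 0.0272). Whether macrophage number played a part was not tested. PLA2G7 lost its call in 3 of 6 fits without 1 replicate number, without the variance trend, and on the D298 arrays alone with the block. Its signal in fasted gilt 6 (841) was below that in fed gilt 3 (855). GPNMB lost its call when any of 5 arrays was left out (fed gilts 1, 3 and 4, fasted gilts 2 and 4; adjusted p up to 0.0741) and ACP5 when any of 8 was (fed gilts 1 to 4, fasted gilts 1, 2, 4 and 6; adjusted p up to 0.0927), and GPNMB had 4 other probe sets, from -0.13 to 1.43, none called. Lists for adipocytes, neutrophils, lymphocytes, erythroid, endothelial, stellate, bile duct, and pancreas or gut cells had no called gene, with unadjusted p under 0.05 for 2 of 11, 0 of 6, 0 of 11, 3 of 4, 2 of 11, 2 of 9, 1 of 8 and 2 of 8, where 16.2% of all genes had one.

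The last question was whether the D298 response differed from that of N298 gilts, whose fed and fasted arrays are separate animals. In N298 liver 355 probe sets (1.48%) were called. Of the D298 calls 181 were also called in N298 in the same direction, which is 46.3% of the D298 and 51.0% of the N298 calls, and none was called in the opposite direction. The difference of both responses, tested directly by limma, gave 0 called probe sets (0%), with 1390 (5.79%) at an unadjusted p under 0.05 and a smallest adjusted p of 0.850. No change described above is therefore shown to be particular to D298. A call in 1 genotype alone does not show a difference: FADS1 fell in D298 (-2.54 ± 0.52 SE) and not in N298 (-0.89 ± 0.52), and the difference had an unadjusted p of 0.0352.

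Single genes with the smallest unadjusted p of the difference were LOC100519643, LAPTM5, WNK1, IGFBP1 and FGGY. IGFBP1 changed by -0.89 ± 0.23 SE in D298 and by 0.42 ± 0.23 in N298 liver, a difference of -1.31 (95% interval -2.00 to -0.62; unadjusted p = 0.000704). The lysosomal membrane protein LAPTM5 gave 0.32 ± 0.14 and -0.51 ± 0.14, and the carbohydrate kinase FGGY -0.01 ± 0.17 and 0.91 ± 0.17, with only the last called in N298. The kinase WNK1 was dim, with signals of 2.29 to 38.8 over the 12 D298 arrays. SMAP2, an Arf GTPase activator named after its values were seen, rose in D298 (0.62 ± 0.13 SE) and gave -0.08 ± 0.13 in N298 (unadjusted p = 0.000879). Among the leading genes, MIOX fell by 2.77 in D298 and gave -1.38 ± 0.41 in N298 (difference -1.39, 95% interval -2.61 to -0.17), CYP2B22 gave -2.55 and -1.06 ± 0.40, CRAT 1.41 and 0.76 ± 0.17, DHRS4 1.26 and 1.93 ± 0.17, and SCAP 0.76 and 0.33 ± 0.10. These had unadjusted p-values of 0.0273, 0.0147, 0.0134, 0.0105 and 0.00708 for the difference, and none passed the adjustment.

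For the leading sterol genes the genotypes were close. ACAT2 changed by -3.07 and -3.09 ± 0.19, HMGCS1 by -2.90 and -2.96 ± 0.21 and CYP51 by -2.63 and -2.57 ± 0.17, and 1 of 15 list members (6.67%) had an unadjusted p under 0.05 for the difference. The 95% interval of the difference was -0.53 to 0.57 for ACAT2 and -0.55 to 0.66 for HMGCS1, so log2 differences within these ranges were not excluded. PC (1.87 ± 0.13 SE and 1.82 ± 0.13) and LDHB (1.76 ± 0.14 SE and 1.82 ± 0.14) were as close, with 95% intervals of -0.32 to 0.43 and -0.48 to 0.36.

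Mitochondrial beta-oxidation genes mostly had lower estimates in D298 than in N298 liver. The estimate was lower in D298 for 17 of 18 genes, with a median difference of -0.28, and 9 of 18 (50%) had an unadjusted p under 0.05, against 6.62% of all genes. ACADVL rose by 1.36 in D298 and 1.79 in N298, HADHA by 1.07 and 1.38, and ETFDH by 0.58 and 0.96. The largest gaps were in uncalled D298 genes: ACADM gave -0.22 ± 0.12 against 0.31 ± 0.12 and ETFB, an electron transfer flavoprotein subunit, -0.22 ± 0.12 against 0.32 ± 0.12 (unadjusted p = 0.00660 and 0.00434). No gene of the list passed the adjusted test. The count at an unadjusted p under 0.05 depended on scaling and animals, with 3 under quantile normalization, 11 after centring each array on its median, 3 without the gilts numbered 2 or 5, 4 without those numbered 3 and 5 without those numbered 6. The direction held for 16 or 17 of 18 genes in each of these. Ribosomal protein genes showed a like offset, with 59 of 59 below N298 and a median difference of -0.23, or 50 of 59 and -0.10 under quantile normalization.

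**Figure D5:**
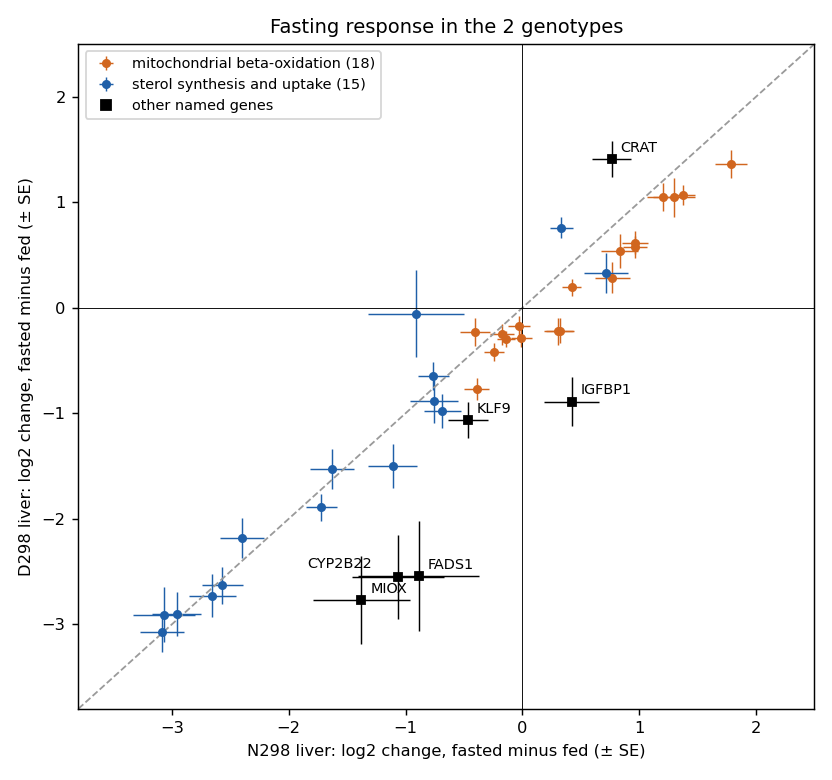
The log2 change, fasted minus fed, in N298 liver (horizontal) against D298 liver (vertical), with standard errors, for 18 beta-oxidation genes (orange), 15 sterol genes (blue) and 6 other named genes (black squares); the dashed line marks equal change. All beta-oxidation points but 1 lie below the line, sterol points lie on both sides of it, and IGFBP1 lies right of 0 and below 0.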

How the data were processed

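Total RNA of each tissue was labelled with biotin and hybridised to Affymetrix porcine arrays, 1 array per tissue and gilt. The values the authors deposited are linear signal intensities, 1 for each probe set of an array; the submitters' processing notes name affy and MAS5, and further settings were not given in the sources used here. The deposited intensities had a common trimmed mean on every array and no zeros, and carry no detection calls, so dim probe sets could not be told from background. Of 24123 probe sets, 124 controls were left out and 23999 tested, without a filter. Of these, 10069 had 1 gene symbol, 198 several and 13732 none in the annotation supplied with the platform; gene IDs of 9961 were found in RefSeq's gene table, and no symbol changed. A gene with several probe sets was represented by the brightest over all 48 arrays.

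Log2 intensities, with nothing added, of the 24 liver arrays entered 1 linear model (limma 3.58.1 under R 4.3.3; lmFit, then eBayes with a variance trend) whose terms were the 4 genotype-by-feeding groups and a fixed block for the 6 replicate numbers, because the series is described as a block design. All tests were 2-sided. Array measures were compared by exact permutation tests (SciPy 1.17.1), whose smallest p with 6 against 6 is 0.00216. The labels do not say how the animals were housed or sampled beyond 1 gilt per array, and the number of arrays limits the precision.

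The comparison and the gene lists were chosen with earlier results of these data known. Genes are named by a rule: the 15 largest rises and 15 largest falls among called genes brighter than the median probe set, up to 4 called members of each list in its main direction and 2 in the other, the 5 smallest p-values of the genotype difference, and a fixed set of names. Lists of 8 or fewer measured genes, and other members of the main lipid and glucose lists, are given beside these. Some of the fixed names were not analysed here. The alternatives tried are given in the closing section. Tables were made with pandas 2.3.3 (Python 3.11.15) and plots with Matplotlib 3.10.9.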

Additional observations from a re-analysis of the deposited data

Results flagged for a closer look

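Among 326 sets of 6 values examined, each 1 gene or array measure in fed or in fasted liver, 26 held 1 gilt far from the others. Chance gives about 1 in 20 for a single set, but all sets come from the same 12 gilts and are not independent. In fed liver these were fed gilt 4 with an actin 3′ to 5′ ratio of 8.63, and single low signals of NPC1 (604), LAPTM5 (937), NSDHL (1112) and ACSL1 (13517) in gilt 6, CYP7A1 (140.0) and GOT2 (7798) in gilt 1, CRY2 (120.5), BHLHE40 (302) and PLA2G7 (475) in gilt 5 and CYP8B1 (1.41) in gilt 4. A high signal of ACAD9 (1113) was seen in gilt 5.

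In fasted liver gilt 2 had a high signal of NEB (599) and low signals of HRG (1742), KNG1 (6080.0), WNK1 (3.14), CYP7A1 (123) and NR3C1 (287). Gilt 4 had low signals of HADHA (4645), ALDH1L1 (7547), PPARGC1A (289) and SREBF1 (149). Gilt 3 had low signals of IDH1 (6572) and PNPLA3 (6.19), gilt 5 a low signal of ETFA (6553) and gilt 6 a high signal of ME1 (228). Fasted gilt 2 also had the lowest median correlation with its own group (0.916).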

How the results depend on the processing

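The replicate number may not mark a shared litter or pen. Residuals of same-numbered D298 arrays correlated by -0.06 to 0.03, and 3 of 12 D298 arrays correlated best with their own number. Without the replicate block 390 probe sets were called, 349 of them among the 391, and with a random replicate block 398, 353 of them among the 391. Without the trend of the variance 240 were called (104 higher, 136 lower). On the 12 D298 arrays alone 181 were called with the block (72 higher, 109 lower) and 263 without it (110 higher). Over the 6 fits that leave out the arrays of 1 replicate number, the counts were 232 to 346 (102 to 149 higher, 130 to 197 lower), lowest without number 3. Leaving out single arrays gave 275 to 395 (126 to 183 higher, 147 to 212 lower). Quantile normalization (403), median-centring (357), brighter probe sets only (511), array weights (375) and 32 added before log2 (397) stayed within 1.5 times. Taking each gene's brightest probe set over the liver arrays alone moved the acute phase list from 1 to 2 called lower and left the other list counts within 1.5 times. Leaving out any replicate number left the 4 array measures with exact permutation p-values of 0.278 to 1. The genotype difference gave 0 calls in every fit that holds both genotypes. No gene named in the text changed sign with a call. Of 68 called genes named by the rule, 14 lost the call without the trend and 16 on the D298 arrays alone with the block. The precision of dim genes, such as NNAT, PSPH or PNPLA3, is limited by signal near the floor of the scale.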

Other observations

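FABP4, a fatty acid binding protein of fat and macrophages, had signals of 5.57 to 79.0 in fed and 59.1 to 209 in fasted liver (log2 1.78 ± 0.50 SE, n = 6 per group; adjusted p = 0.0867 by limma), and passed the threshold without fed gilt 2 (adjusted p 0.0230). The summed signal of 4 erythroid markers was 1454 to 2720.2 in fed and 1116 to 2370.2 in fasted liver. None of these 4 genes was called by limma, and 3 had an unadjusted p under 0.05.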
